A study of Mus musculus with 8 samples.

Results

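The mTOR complexes and their upstream regulators were described here by the mRNAs of 44 genes, measured with and without immunoprecipitation of Flag-eIF4A2 FL. The genes encode the subunits and assembly factors of mTORC1 and mTORC2, the TSC complex with Rheb, the Rag GTPases with Ragulator, folliculin and its partners, GATOR1 and GATOR2, the KICSTOR subunit kaptin with the sestrins, and kinases of the PI3K-AKT branch and downstream of mTORC1. They were chosen by gene symbol, and all 44 were found among the 52550 genes of the count table.

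mTOR is a protein kinase that works in a pair of complexes. mTORC1, held together by raptor, promotes protein synthesis and growth when amino acids and growth factors are present, while mTORC2, built on rictor, phosphorylates AKT. Growth factor signals reach mTORC1 through PI3K, AKT, the TSC complex and the GTPase Rheb, and amino acid signals reach it at the lysosome through the Rag GTPases, Ragulator, GATOR1 and GATOR2.

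RNA immunoprecipitation (RIP) collects RNA with a tagged protein through an antibody to the tag, and input is RNA of the lysate before that step. All 8 libraries came from mouse embryonic stem cells (ESCs) lacking *Eif4a2*, which encodes an RNA helicase of translation initiation, so the control cells carried the knockout too. The parental line held a Rex1-GFPd2 reporter and a Cas9 transgene. Cells grew for 2 d in ES-DMEM with 2i (CHIR99021 at 1.5 µM and PD0325901 at 0.5 µM) and LIF at 10 ng/ml, and 5 µg of anti-Flag M2 antibody was used over 3 h. *Eif4a2* KO ESCs with the empty vector (EV) gave the groups input EV and RIP EV, and *Eif4a2* KO ESCs with 3xFlag-tagged full-length eIF4A2 gave the groups input eIF4A2 FL and RIP eIF4A2 FL, with 2 libraries in each of the 4 groups. The transgene was integrated with piggyBac and driven by the CAG promoter, and its expressing lines are 2 clones. Whether the EV libraries came from separate clones or cultures is not stated in the sources used here, so p-values measure only the spread between these libraries. A label field of RIP eIF4A2 FL replicate 2 names Eif4a3, whereas its title and the methods name Eif4a2.

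*Eif4a2* (ENSMUSG00000022884.14, chr16:23107444-23114136, plus strand, GRCm38) was counted at 53.8 and 94.3 CPM (counts scaled to the gene reads of a library) in input EV, 86.8 and 69.1 CPM (eIF4A2 FL input), 56.7 and 126 CPM (EV RIP), and 76.7 and 47.4 CPM (eIF4A2 FL RIP). The groups overlapped, and tags of the deleted gene were present in EV cells. The guide pair of the knockout is shown because it places the deletion relative to those tags, with the PAM in capitals, on the strand opposite to that of the oligos listed by the study.
gRNA1: gagtaccaacaacaatgtgaGGG
gRNA3: gctaacatacaaaatgccttGGG
Both match the minus strand of chromosome 16 in GRCm38.p6, gRNA1 at chr16:23110095-23110114 in exon 5 and gRNA3 at chr16:23112521-23112540 in an intron. Cutting at both would remove chr16:23110098-23112523, which is 2426 bases with the whole of exons 6 to 10 of 11. The last exon (chr16:23113167-23113947) lies outside, and the libraries sequence tags near the 3′ end, so *Eif4a2* tags check neither the knockout nor the labels.

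Reads on genes numbered 7269765 and 3204369 (EV input), 4620862 and 6225787 (eIF4A2 FL input), 2044853 and 3345151 (EV RIP), and 11206420 and 9976801 (eIF4A2 FL RIP). RIP EV stood apart from the other groups. Its biological coefficient of variation was 159%, against 30.0% in input EV, 28.03% in input eIF4A2 FL and 23.0% in RIP eIF4A2 FL. Of the 43 members tested (those reaching 1 CPM in each of the 4 inputs), 12 agreed within 2-fold between the RIP EV libraries on CPM + 1 (46.4% of all genes tested), against 43, 40 and 43 in those groups (87.9%, 91.0% and 95.2% of genes). Reads outside annotated exons made up 45.8% and 29.7% of the table's reads in RIP EV and 3.30% and 4.13% in RIP eIF4A2 FL. By mitochondrial transcripts it was RIP eIF4A2 FL that stood apart, at 0.00653% and 0.0123% of gene reads, against 0.828% and 0.616% in RIP EV, 1.11% and 2.44% in input EV, and 0.793% and 0.836% in input eIF4A2 FL. The part of these differences in the results was not tested. Of the 43 members, 4 had 0 counts in both RIP EV libraries (18.2% of all genes tested), 16 in 1 of them (30.7%) and 23 in neither (51.1%). In the comparison with RIP EV, counts, medians and bounds are therefore given with and without each of its libraries.

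The ESC label was checked with 10 marker genes of mouse ESCs, which together measured 2718 and 2414 CPM (EV input) and 3491 and 3038 CPM (eIF4A2 FL input), all 10 being detected in the inputs. *Tfcp2l1* was the most abundant of them. *Pou5f1* was the least abundant, at 19.7 and 9.05 CPM (EV input) and 15.8 and 5.78 CPM (eIF4A2 FL input). The 4 endoderm markers came to at most 1.08 CPM and the 5 fibroblast or feeder markers to at most 6.87 CPM in any input. In the inputs the 3 mesendoderm markers (*Eomes* the most abundant) reached at most 22.5 CPM, the 3 neural markers 14.9 CPM, the 3 trophoblast markers 6.55 CPM, the 2 markers of 2-cell-like cells 5.19 CPM, and the 4 formative or primed markers (*Dnmt3b* the most abundant) 198 CPM. Because the samples are bulk lysates, fewer cells expressing a gene and less RNA per cell cannot be told apart in any value that follows.

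The first comparison asked which of these mRNAs were recovered with Flag-eIF4A2 FL above or below their level in the same cells (RIP eIF4A2 FL against input eIF4A2 FL). The mRNAs of *Mtor* itself, of the scaffolds *Rptor* and *Rictor*, of *Tsc2*, of the folliculin gene *Flcn*, of *Pik3ca*, *Sesn2*, *Tti1* and, just inside the threshold, *Rragc* were higher in RIP, and *Rraga* was lower. That made 9 of 43 members higher at an edgeR adjusted p of at most 0.05, against 8.44% of the 10754 genes tested, and 1 member lower, against 8.46%. The median log2 fold change was 0.34 over the members and 0.02 over all genes. By library size alone these medians were 0.64 and 0.33 and the count of higher members 14, with 1960 genes higher and 565 lower against 908 and 910 here, so changes are read against the median of all genes. In CPM, each RIP library exceeded each input for 27 of the 43 members and 45.8% of all genes, and lay under each input for 4 members and 18.7% of genes. Every call was lost without 1 or the other RIP library. Without RIP eIF4A2 FL replicate 1 only *Mtor* and *Pik3ca* stayed called, and without replicate 2 only *Rptor*, *Tsc2*, *Flcn* and *Rraga*. The lost calls kept their direction, with log2 fold changes of 1.30 for *Rptor*, 1.48 for *Rictor* and 1.33 for *Tsc2* and *Flcn* without RIP eIF4A2 FL replicate 1, and of 0.73 for *Rragc* and 0.89 for *Mtor* without replicate 2. Without input eIF4A2 FL replicate 1 there were 3 lower members (10.3% of genes). On all 8 libraries, where RIP EV enters the spread, edgeR called 0 members higher (0% of genes) and 0 lower (0.0558%) and DESeq2 2 higher (2.55%) and 0 lower (4%). On these 4 libraries DESeq2 called 8 higher (9.27%) and 2 lower (10.2%) and limma voom 8 (8.17%) and 1 (8.82%).

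**Figure D1:**
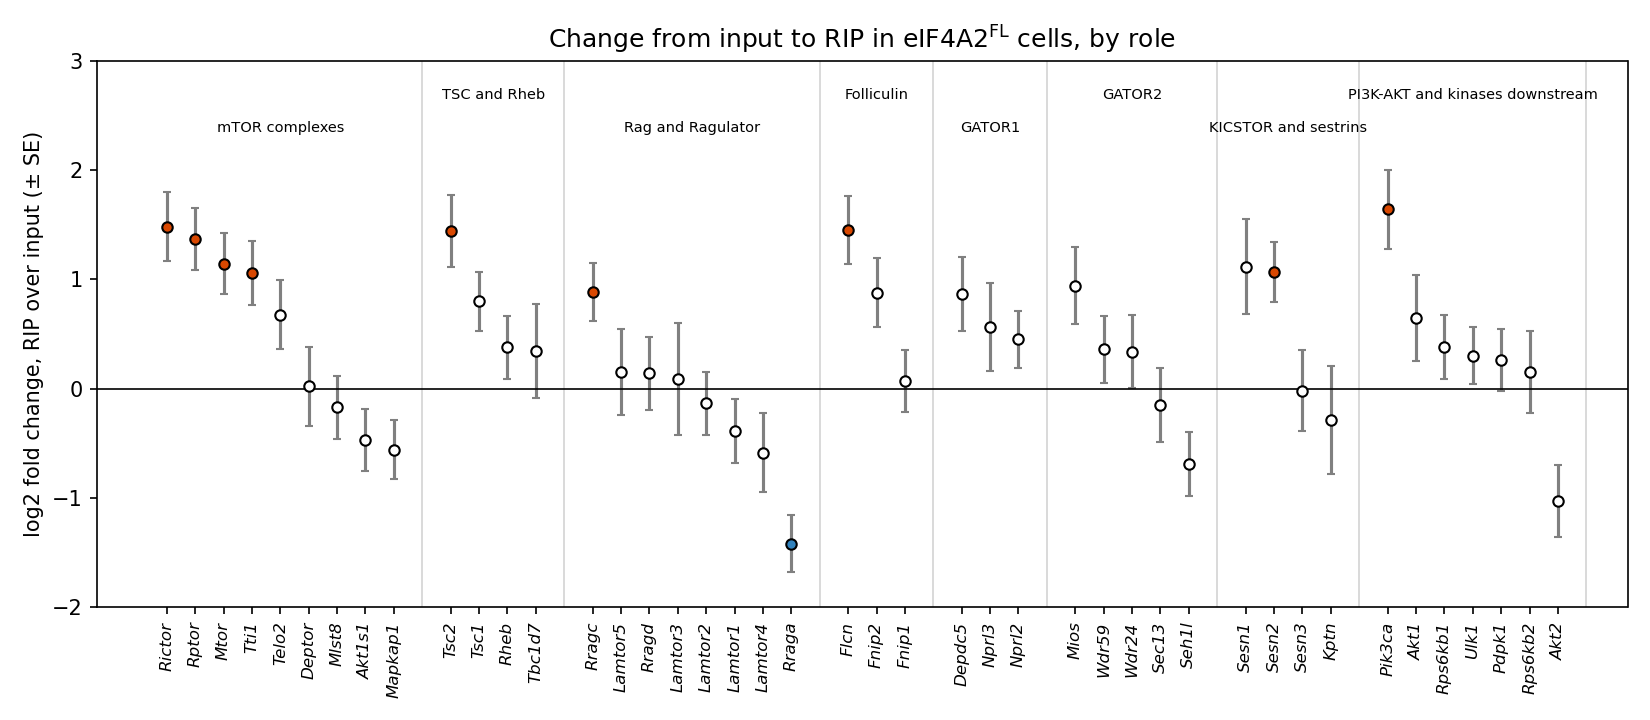
Log2 fold change of RIP eIF4A2 FL over input eIF4A2 FL with its standard error (vertical axis) for the 43 members tested, grouped by role. Orange points passed an adjusted p of 0.05 upward (9 members), the blue point passed downward (*Rraga*), and open points did not pass.

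Among the mTOR complexes, 4 of 9 members rose and none fell, against 8.44% and 8.46% of all genes tested. *Mtor* (ENSMUSG00000028991.15, chr4:148448611-148557683, plus strand), the kinase, measured 43.1 and 44.3 CPM (EV input), 48.9 and 55.9 CPM (eIF4A2 FL input), 0 and 0.299 CPM (EV RIP), and 125 and 161 CPM (eIF4A2 FL RIP). Both RIP eIF4A2 FL libraries were above every other library, and both RIP EV libraries were below every input. The log2 fold change of RIP over input was 1.14 (SE 0.28, edgeR adjusted p = 0.0234, 2 libraries a group). *Rptor*, the scaffold of mTORC1, measured 28.2 and 25.0 CPM (EV input), 15.4 and 20.2 CPM (eIF4A2 FL input), 29.3 and 87.0 CPM (EV RIP), and 61.0 and 52.7 CPM (eIF4A2 FL RIP). RIP was above input in both cell lines, and the RIP eIF4A2 FL libraries lay between those of RIP EV. Its log2 fold change over input was 1.37 (SE 0.28, edgeR adjusted p = 0.0132). For *Rictor*, the scaffold of mTORC2, the levels were 6.88 and 8.11 CPM (EV input), 8.44 and 9.64 CPM (eIF4A2 FL input), 5.38 and 35.3 CPM (EV RIP), and 32.2 and 30.4 CPM (eIF4A2 FL RIP). Again the RIP eIF4A2 FL libraries exceeded their inputs and fell between the RIP EV libraries, with a log2 fold change over input of 1.48 (SE 0.32, edgeR adjusted p = 0.0145). Leaving out RIP eIF4A2 FL replicate 1 ended the calls of *Rptor* and *Rictor* (edgeR adjusted p = 0.052 and 0.0524), and leaving out replicate 2 those of *Mtor* and *Rictor* (edgeR adjusted p = 0.158 and 0.0587).

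*Tti1*, whose protein helps to assemble mTOR and related kinases, measured 7.43 and 10.3 CPM (EV input), 14.3 and 14.3 CPM (eIF4A2 FL input), 39.6 and 7.77 CPM (EV RIP), and 38.8 and 35.0 CPM (eIF4A2 FL RIP). It stood higher in RIP than in input eIF4A2 FL (log2 fold change 1.06, SE 0.29, edgeR adjusted p = 0.0359), while one RIP EV library reached the same level and the other did not. The call of *Tti1* was lost with the replicate number as a block. It was also lost without RIP eIF4A2 FL replicate 1 or 2 or input eIF4A2 FL replicate 2 (log2 fold changes 1.02, 1.08 and 1.01). The remaining subunits did not pass. *Mlst8*, shared by both complexes, measured 28.5 and 40.0 CPM (EV input), 42.9 and 61.4 CPM (eIF4A2 FL input), 28.9 and 61.0 CPM (EV RIP), and 66.7 and 47.7 CPM (eIF4A2 FL RIP), and RIP and input eIF4A2 FL overlapped (log2 fold change −0.17). *Mapkap1*, an mTORC2 subunit, measured 52.0 and 40.9 CPM (EV input), 51.3 and 51.2 CPM (eIF4A2 FL input), 0 and 3.29 CPM (EV RIP), and 39.5 and 46.4 CPM (eIF4A2 FL RIP). Its RIP eIF4A2 FL libraries were just below their inputs (log2 fold change −0.56, edgeR adjusted p = 0.171), and its RIP EV libraries were far below every other library.

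*Akt1s1*, which encodes the mTORC1 inhibitor PRAS40, measured 26.8 and 47.1 CPM (EV input), 34.8 and 30.4 CPM (eIF4A2 FL input), 105 and 66.1 CPM (EV RIP), and 30.7 and 27.6 CPM (eIF4A2 FL RIP). Here the highest libraries were those of RIP EV, and RIP and input eIF4A2 FL overlapped (log2 fold change −0.47, edgeR adjusted p = 0.267). *Deptor*, an inhibitor bound to both complexes, measured 14.4 and 25.9 CPM (EV input), 52.4 and 33.7 CPM (eIF4A2 FL input), 20.5 and 125 CPM (EV RIP), and 39.4 and 68.4 CPM (eIF4A2 FL RIP). RIP and input eIF4A2 FL overlapped for it as well (log2 fold change 0.02). The ninth member, *Telo2*, was above its inputs in both RIP eIF4A2 FL libraries and missed the threshold (log2 fold change 0.68, edgeR adjusted p = 0.165, and 0.0245 without input eIF4A2 FL replicate 2).

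Of TSC and Rheb, 1 of 4 members rose and none fell, against 8.44% and 8.46% of all genes tested. All 4 log2 fold changes were above 0, as were those of 5455 of the 10754 genes tested. That of *Tbc1d7* fell to −0.02 in the lowest of the other fits. *Tsc2*, the GTPase-activating subunit that turns Rheb off, measured 17.9 and 14.7 CPM (EV input), 20.6 and 12.5 CPM (eIF4A2 FL input), 18.6 and 22.4 CPM (EV RIP), and 61.2 and 50.3 CPM (eIF4A2 FL RIP). Both RIP eIF4A2 FL libraries were above all others, with a log2 fold change over input of 1.44 (SE 0.33, edgeR adjusted p = 0.0195, and 0.0564 without RIP eIF4A2 FL replicate 1). *Pkd1* lies on the opposite strand at the 3′ end of *Tsc2*, and since no source used here gives the strand setting, its counts are uncertain. *Tsc1*, its partner, measured 42.5 and 58.4 CPM (EV input), 50.0 and 44.7 CPM (eIF4A2 FL input), 134 and 94.2 CPM (EV RIP), and 95.2 and 108 CPM (eIF4A2 FL RIP). RIP lay above input in both cell lines to a similar level, and the change in eIF4A2 FL cells missed the threshold (log2 fold change 0.80, SE 0.27, edgeR adjusted p = 0.0681, and 0.0477 without input eIF4A2 FL replicate 1). *Tbc1d7*, the last subunit of the complex, measured 9.49 and 4.68 CPM (EV input), 4.33 and 8.67 CPM (eIF4A2 FL input), 0 CPM in both RIP EV libraries, and 10.3 and 10.2 CPM (eIF4A2 FL RIP). *Rheb*, the GTPase that activates mTORC1, measured 19.5 and 31.5 CPM (EV input), 18.6 and 18.8 CPM (eIF4A2 FL input), 0 and 32.6 CPM (EV RIP), and 32.0 and 28.2 CPM (eIF4A2 FL RIP). For *Tbc1d7* and *Rheb* the RIP eIF4A2 FL libraries exceeded their inputs without passing the test, with log2 fold changes of 0.34 and 0.38 (edgeR adjusted p = 0.611 and 0.393).

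**Figure D2:**
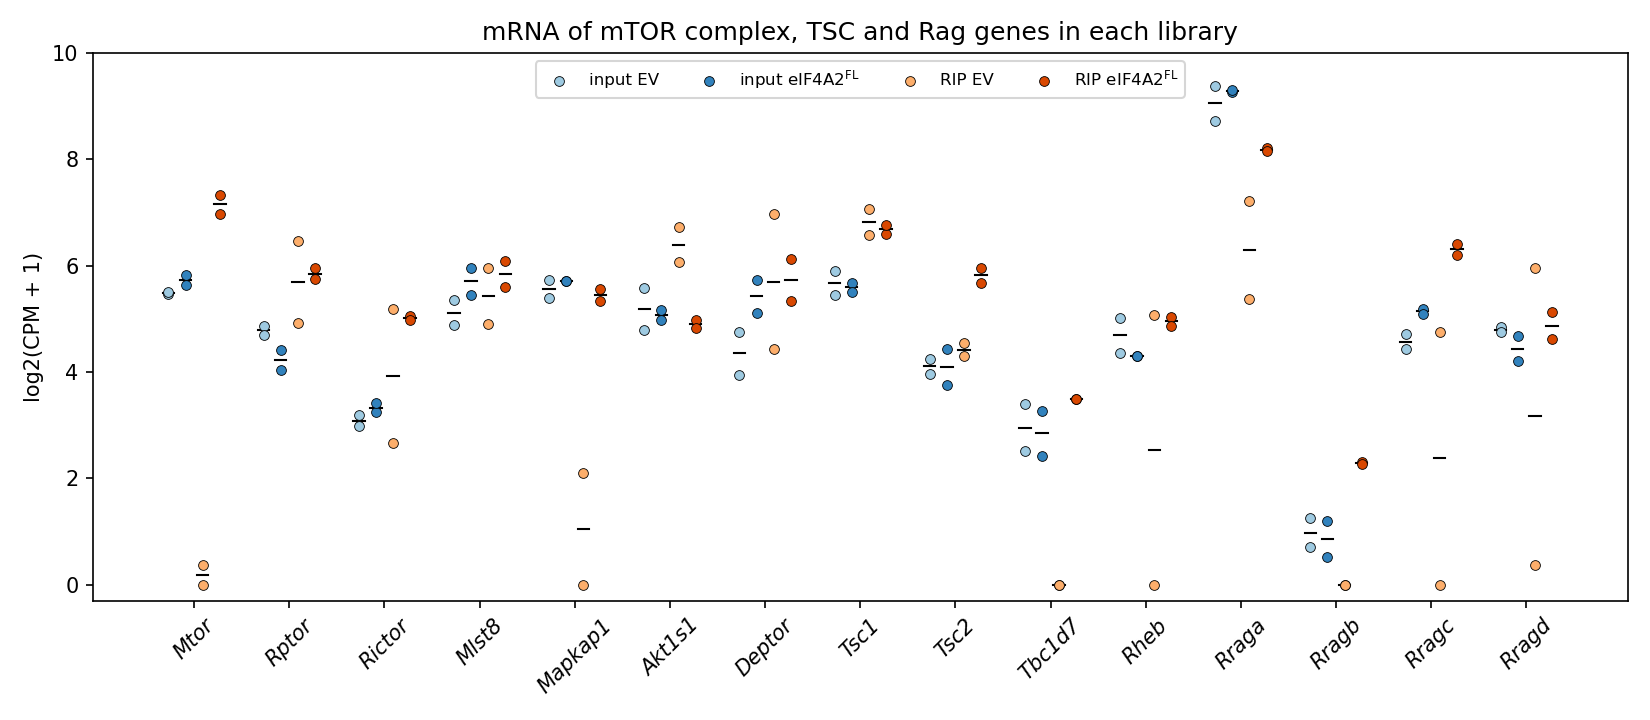
Level of 15 genes in each of the 8 libraries as log2(CPM + 1), with points for libraries and a line at the mean of each group of 2. *Mtor* and *Tbc1d7* are near 0 in both RIP EV libraries, while *Rptor*, *Rictor* and *Rragd* differ widely between them.

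Of the Rag GTPases and Ragulator, 1 of the 8 members tested rose and 1 fell, against 8.44% and 8.46% of all genes tested. The Rag GTPases form pairs of RagA or RagB with RagC or RagD on the lysosome. *Rraga* (ENSMUSG00000070934.6, chr4:86575668-86577285, plus strand) measured 662 and 423 CPM (EV input), 617 and 635 CPM (eIF4A2 FL input), 148 and 40.7 CPM (EV RIP), and 296 and 283 CPM (eIF4A2 FL RIP). Every RIP library was below every input, with a log2 fold change in eIF4A2 FL cells of −1.42 (SE 0.26, edgeR adjusted p = 0.00918, and 0.0502 without RIP eIF4A2 FL replicate 1). *Rragc* measured 20.5 and 25.3 CPM (EV input), 35.5 and 33.3 CPM (eIF4A2 FL input), 0 and 26.0 CPM (EV RIP), and 73.0 and 83.6 CPM (eIF4A2 FL RIP). Both RIP eIF4A2 FL libraries were above all others, and the call was marginal (log2 fold change 0.88, SE 0.27, edgeR adjusted p = 0.0497). It held in 2 of 11 other settings with all libraries, and was lost without RIP eIF4A2 FL replicate 1 or 2 or input eIF4A2 FL replicate 2 (edgeR adjusted p = 0.106, 0.285 and 0.117).

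*Rragd* measured 27.7 and 25.9 CPM (EV input), 24.7 and 17.4 CPM (eIF4A2 FL input), 61.1 and 0.299 CPM (EV RIP), and 33.8 and 23.7 CPM (eIF4A2 FL RIP), with RIP and input eIF4A2 FL overlapping (log2 fold change 0.14). *Rragb* was the only member that failed the filter on low counts. It measured 1.38 and 0.624 CPM (EV input), 0.433 and 1.29 CPM (eIF4A2 FL input), 0 CPM in both RIP EV libraries, and 3.93 and 3.81 CPM (eIF4A2 FL RIP), which put both RIP eIF4A2 FL libraries above all others without a test. The Ragulator subunits, small adaptors that anchor the Rag GTPases, spanned log2 fold changes from −0.59 (*Lamtor4*) to 0.15 (*Lamtor5*), and none passed. *Lamtor4* measured 60.5 and 75.2 CPM (EV input), 41.1 and 92.7 CPM (eIF4A2 FL input), 64.6 and 15.8 CPM (EV RIP), and 48.2 and 60.6 CPM (eIF4A2 FL RIP). All of its groups overlapped, and without input eIF4A2 FL replicate 1 it was called lower in RIP (log2 fold change −1.02, edgeR adjusted p = 0.0212).

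*Flcn* encodes folliculin, which activates the GTPase of RagC and RagD with the help of the *Fnip1* and *Fnip2* products. It measured 11.3 and 17.2 CPM (EV input), 10.6 and 11.1 CPM (eIF4A2 FL input), 65.5 and 31.7 CPM (EV RIP), and 40.8 and 32.8 CPM (eIF4A2 FL RIP). RIP was above input in both cell lines, and RIP eIF4A2 FL overlapped with RIP EV. The log2 fold change over input was 1.45 (SE 0.31, edgeR adjusted p = 0.0144, and 0.0745 without RIP eIF4A2 FL replicate 1), while those of *Fnip2* (0.88, edgeR adjusted p = 0.0837, and 0.0186 without input eIF4A2 FL replicate 2) and *Fnip1* (0.07) did not pass.

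None of GATOR1, the complex that turns RagA off, or of GATOR2, which opposes GATOR1, passed the threshold in edgeR with TMM factors on these 4 libraries, though with library size alone *Depdc5* and *Mios* were called higher (edgeR adjusted p = 0.0326 and 0.0317). At an unadjusted p below 0.05 *Depdc5* and *Mios* were above and *Seh1l* below input. The members *Depdc5*, *Nprl3* and *Nprl2* of GATOR1 had log2 fold changes of 0.87, 0.56 and 0.45. *Mios* of GATOR2 measured 12.5 and 12.5 CPM (EV input), 7.14 and 10.1 CPM (eIF4A2 FL input), 0 and 0.299 CPM (EV RIP), and 23.3 and 17.8 CPM (eIF4A2 FL RIP). As for *Mtor*, RIP eIF4A2 FL was above every other library and RIP EV below every input, with a log2 fold change over input of 0.94 (SE 0.35, edgeR adjusted p = 0.0934). *Wdr59* measured 15.96 and 23.1 CPM (EV input), 21.4 and 21.04 CPM (eIF4A2 FL input), 0 and 71.8 CPM (EV RIP), and 28.5 and 38.8 CPM (eIF4A2 FL RIP). The RIP EV libraries held both its lowest and its highest value (log2 fold change over input 0.36). *Seh1l*, which also serves in the nuclear pore, measured 78.0 and 84.9 CPM (EV input), 69.3 and 70.7 CPM (eIF4A2 FL input), 73.8 and 32.9 CPM (EV RIP), and 67.2 and 40.5 CPM (eIF4A2 FL RIP). Its RIP libraries were below their inputs in both cell lines, in each by a narrow gap, and the change did not pass (log2 fold change −0.69, edgeR adjusted p = 0.133).

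The sestrins relay leucine and stress signals to GATOR2, and 1 of 3 rose, against 8.44% of all genes tested. *Sesn2* measured 65.8 and 52.4 CPM (EV input), 82.7 and 77.1 CPM (eIF4A2 FL input), 0.489 and 139 CPM (EV RIP), and 234 and 181 CPM (eIF4A2 FL RIP). RIP eIF4A2 FL was above all other libraries (log2 fold change over input 1.07, SE 0.27, edgeR adjusted p = 0.0271, and 0.147, 0.0554 and 0.0537 without RIP eIF4A2 FL replicate 1, its replicate 2, or input eIF4A2 FL replicate 2), and one RIP EV library lay below every input and the other above. *Sesn1* measured 5.92 and 8.74 CPM (EV input), 3.68 and 4.18 CPM (eIF4A2 FL input), 0 and 3.59 CPM (EV RIP), and 12.8 and 8.42 CPM (eIF4A2 FL RIP). Its size of change was like that of *Sesn2* at a lower count and did not pass (log2 fold change 1.12, SE 0.43, edgeR adjusted p = 0.103). *Sesn3* measured 8.53 and 7.49 CPM (EV input), 16.2 and 12.7 CPM (eIF4A2 FL input), 0 CPM in both RIP EV libraries, and 22.4 and 13.0 CPM (eIF4A2 FL RIP). RIP and input eIF4A2 FL overlapped (log2 fold change −0.02), and *Kptn* of KICSTOR did not pass either (−0.29).

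Of the 7 kinases of the PI3K-AKT branch and downstream, 1 rose and none fell, against 8.44% and 8.46% of all genes tested. *Pik3ca*, the catalytic subunit of PI3K, had the largest log2 fold change of the members tested. It measured 15.1 and 10.3 CPM (EV input), 13.9 and 8.03 CPM (eIF4A2 FL input), 0 and 32.6 CPM (EV RIP), and 38.55 and 45.5 CPM (eIF4A2 FL RIP). Both RIP eIF4A2 FL libraries exceeded all others (log2 fold change over input 1.64, SE 0.36, edgeR adjusted p = 0.0164, and 0.0579 without RIP eIF4A2 FL replicate 2). *Akt2* went the other way, with 113 and 197 CPM (EV input), 80.5 and 162 CPM (eIF4A2 FL input), 7.83 and 89.4 CPM (EV RIP), and 75.9 and 69.6 CPM (eIF4A2 FL RIP). RIP lay below input in both cell lines, and the change in eIF4A2 FL cells missed the threshold (log2 fold change −1.03, SE 0.33, edgeR adjusted p = 0.0575, and 0.00189 without input eIF4A2 FL replicate 1). The log2 fold changes of *Akt1*, *Rps6kb1*, *Ulk1*, *Pdpk1* and *Rps6kb2* ran from 0.65 down to 0.16, and without input eIF4A2 FL replicate 2 *Akt1* was called higher (edgeR adjusted p = 0.0408).

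The RIP of EV cells, which hold no Flag-tagged eIF4A2, gives the background of the antibody and beads. Both RIP EV libraries were above both EV inputs for 7 of the 43 members and 14.6% of all genes, and below both for 16 members and 44.9% of genes. Of the 9 members that rose over input in eIF4A2 FL cells, *Rptor*, *Tsc2* and *Flcn* were above input in RIP EV as well, *Mtor* was below, and the other 5 overlapped. Whether the change from input to RIP differed between the cell lines was not tested.

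Of the 9 members that rose, 6 have a coding sequence of 3000 bases or more, while *Rragc* (1194), *Sesn2* (1440) and *Flcn* (1737) are shorter. Of the 11 members with a coding sequence of 3000 bases or more, 6 rose and none fell (median log2 fold change 1.06), against 35.5% and 0.282% of the 1416 coding genes tested in that range (median 0.91). Of the 21 members from 1000 to under 3000 bases, 3 rose and none fell, against 6.59% and 5.17% of 5432 genes. Of the 11 members under 1000 bases none rose and 1, *Rraga*, fell, against 1.24% and 12.1% of 3237 genes, and their median was −0.15 beside −0.28 for those genes. Across the 43 members the Pearson correlation of the log2 fold change with log2 coding length was 0.62 and Spearman's rho 0.67, and across 10085 coding genes they were 0.48 and 0.49. With the longest annotated transcript in place of the coding sequence the correlations were 0.49 and 0.47 over the members and 0.31 and 0.32 over the coding genes. The log2 fold change also ran against the level in input eIF4A2 FL (r = −0.50 over the members and −0.28 over the coding genes). That input is also the denominator of the fold change, so error in its libraries alone pushes r below 0. These r values therefore cannot show a relation to mRNA level. These are descriptions across genes, which share libraries and are not independent replicates. The length classes were chosen after the data were seen, and the parts of length and of level in the change were not tested.

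**Figure D3:**
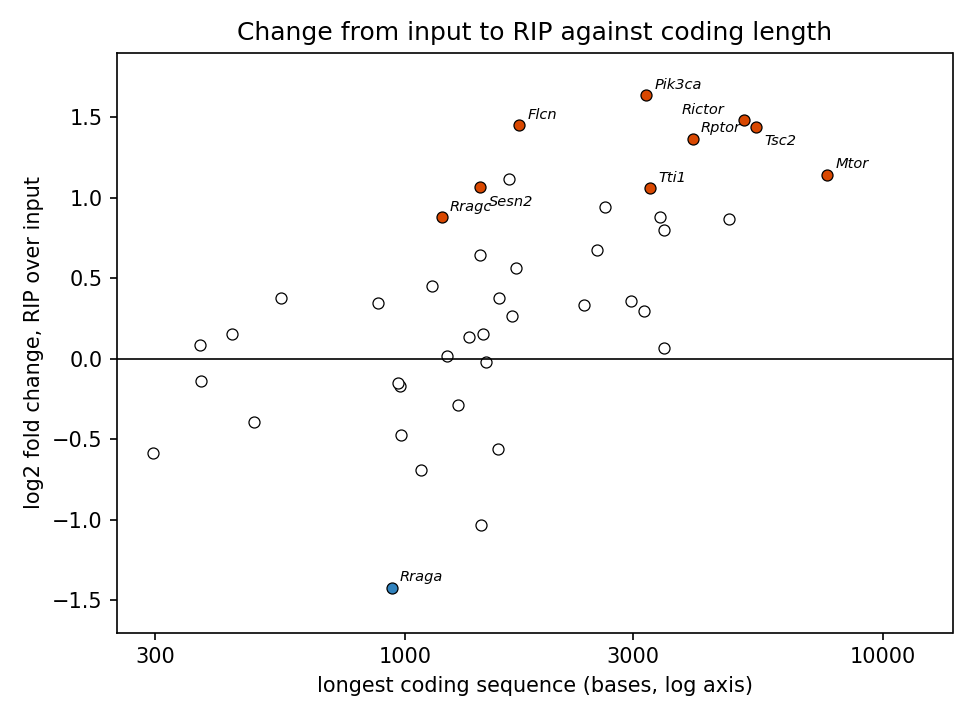
Log2 fold change of RIP over input in eIF4A2 FL cells (vertical axis) against the longest coding sequence in bases (horizontal log axis) for the 43 members tested. Orange points passed upward and the blue point downward at an adjusted p of 0.05, and 6 of the 9 orange points have at least 3000 bases.

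Of 62 other pathway genes, 56 were tested, and over input 5 rose and none fell, against 8.44% and 8.46% of all genes, so the share that rose is near that of all genes. Their median log2 fold change was 0.24. *Larp1*, which encodes an mTORC1 substrate that binds mRNAs of the translation machinery, measured 34.7 and 44.0 CPM (EV input), 22.9 and 18.95 CPM (eIF4A2 FL input), 0 and 109 CPM (EV RIP), and 118 and 147 CPM (eIF4A2 FL RIP). Both RIP eIF4A2 FL libraries were above all others, with one RIP EV library close below them and the other at 0. Its log2 fold change was 2.36 over input (SE 0.30, edgeR adjusted p = 0.00245) and 1.02 over RIP EV (edgeR adjusted p = 0.867). *Foxo3*, a transcription factor restrained by AKT, measured 27.1 and 24.0 CPM (EV input), 84.0 and 53.3 CPM (eIF4A2 FL input), 34.7 and 20.6 CPM (EV RIP), and 255 and 275 CPM (eIF4A2 FL RIP). Here too RIP eIF4A2 FL was above all others, and RIP EV overlapped with its input. Its log2 fold change was 1.63 over input (edgeR adjusted p = 0.0105) and 3.04 over RIP EV (edgeR adjusted p = 0.065). The insulin receptor substrate *Irs2* (1.92), the PI3K regulatory subunit *Pik3r1* (1.18) and *Cab39* (0.96), a partner of the kinase LKB1, were the other genes that rose (edgeR adjusted p = 0.0232, 0.0462 and 0.0381).

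The second comparison asked which mRNAs were recovered above the background of the antibody (RIP eIF4A2 FL against RIP EV). *Tbc1d7*, *Wdr24*, *Sesn3* and *Kptn* had 0 counts in both RIP EV libraries (4 of 43 members tested, against 18.2% of genes). *Mtor*, *Mios* and *Nprl3* had 1 count in those libraries together. *Mapkap1* had 11 counts there and 906 in RIP eIF4A2 FL, a ratio of CPM of 20.96. That ratio was 13.01 against RIP EV replicate 2 alone and at least 29.15 against replicate 1 alone. Even so, edgeR called 0 of 43 members higher and 0 lower, and 0% of all genes in each direction, with the wide spread between the RIP EV libraries in the fit. Unadjusted p-values under 0.05 were found for 8 members higher, against 24% of genes, and 0 lower, against 5.31%. Other tools gave other counts of higher members: 4 by DESeq2 (7.75% of genes) and 8 by limma voom with a weight per group (21.7%) on these 4 libraries, and 9 by edgeR (24.8%) and 11 by DESeq2 (30.4%) on all 8 libraries, which called 1 and 2 members lower (5.46% and 10.5% of genes). *Mtor*, *Wdr24* and *Mios* were called higher by each of these tools, and *Mtor* was the 1 member called with the replicate number as a block (1.95% of genes). Of the 11 other settings with all libraries, *Mtor* was called higher in 5 and *Wdr24* and *Mios* in 4 each. The settings not named here, all in edgeR, called 0 members higher (0% to 0.0248% of genes). By CPM both RIP eIF4A2 FL libraries were above both RIP EV libraries for 23 of the 43 members and 51.9% of genes, and below both for 2 members (*Akt1s1* and *Rps6kb1*) and 12.1% of genes. Against RIP EV replicate 2 alone they were above for 33 members (63.5% of genes) and below for 8 (29.5%), and against replicate 1 alone above for 30 (72.3%) and below for 13 (23.4%). The median log2 fold change was 1.07 for the members and 0.67 for all genes. The order of these medians depended on the setting: they were 0.73 and 0.66 without RIP EV replicate 1, but 2.41 and 3.07 without replicate 2, 1.43 and 1.83 by limma voom, and 1.67 and 1.94 with the replicate block. With the genes at 0 counts in RIP EV set at their bound, they were 1.07 and 0.65.

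*Mtor* had 1 count in RIP EV and 3001 in RIP eIF4A2 FL, a ratio of CPM of 764 with a 95% counting interval of 137 to 30170 (edgeR adjusted p = 0.065). *Mios* had 1 against 439, a ratio of 112 (19.9 to 4422), and *Nprl3* 1 against 205, a ratio of 52.2 (9.26 to 2070). Against RIP EV replicate 2 alone the ratios were 474 (85.0 to 18724), 69.3 (12.4 to 2744) and 32.4 (5.75 to 1285), and against replicate 1 alone, with 0 counts there and a floor of 3 counts in that library, they were at least 96.6, 14.1 and 6.60. The intervals come from exact binomial limits and, like the floors, cover counting error only. Where both RIP EV libraries had 0 counts, the fold was bounded with a floor of 3 counts over the pair, which is 0.557 CPM. On that floor *Wdr24* was at least 37.9-fold higher in RIP eIF4A2 FL, *Sesn3* at least 32.3-fold, *Tbc1d7* at least 18.4-fold, *Kptn* at least 7.13-fold and *Rragb*, untested, at least 6.96-fold. With the floor of 3 counts in RIP EV replicate 2 alone the bounds were 23.5 for *Wdr24*, 20.1 for *Sesn3*, 11.4 for *Tbc1d7*, 4.42 for *Kptn* and 4.32 for *Rragb*, and in replicate 1 alone 14.4, 12.3, 6.98, 2.70 and 2.64. The edgeR adjusted p was 0.065 for *Wdr24*, *Sesn3*, *Tbc1d7* and *Kptn* alike. *Ulk1*, the kinase that starts autophagy, was the other of the 8 members with an unadjusted p under 0.05, at 252 and 237 CPM (EV RIP) and 652 and 598 CPM (eIF4A2 FL RIP). The pairs did not overlap (log2 fold change 1.12, SE 0.25, edgeR adjusted p = 0.065).

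Single RIP EV libraries changed many of the other values. Without RIP EV replicate 1, edgeR called 20 members higher (43.8% of genes) and 5 lower (21.6%), and without replicate 2 it called 28 higher (59.0%) and 9 lower (18.6%), in fits where the lone EV library is taken to vary like RIP eIF4A2 FL. In both of these fits 14 members were higher (32.7% of genes), *Mtor* among them, and *Akt1s1* and *Rps6kb1* lower (8.65% of genes). Another 6 members, *Deptor*, *Wdr59*, *Rragd*, *Sec13*, *Lamtor3* and *Lamtor5*, were called in opposite directions by the 2 fits, as were 13.2% of genes. *Deptor* had a log2 fold change of −0.67 with both libraries, −1.46 without replicate 1 and 1.19 without replicate 2, and *Sec13* −0.25, 1.10 and −0.94. The other 4 had 0 or 1 count in 1 of the RIP EV libraries. *Wdr59* had a log2 fold change of −0.35 with both libraries and −1.35 without replicate 1, and was at least 22.7-fold higher against replicate 1 alone. *Rragd* had −0.30 with both libraries and −1.30 without replicate 2, and a ratio of 97.1 (17.4 to 3842) against replicate 2 alone. *Lamtor5* and *Lamtor3* had −1.75 and −3.13 with both libraries and −2.75 and −4.13 without replicate 2, and were at least 23.95-fold and 3.95-fold higher against replicate 2 alone. For these 6 members neither direction holds over both RIP EV libraries.

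The third comparison asked whether the mRNA levels themselves differed between eIF4A2 FL and EV cells (input eIF4A2 FL against input EV). *Fnip2* and *Deptor* were highest and *Lamtor3* and *Sesn1* lowest by fold, and none passed. edgeR called 0 members higher and 0 lower, and 0% of all genes in each direction. By unadjusted p below 0.05, 2 members were higher (3.74% of genes) and 0 lower (3.66% of genes). DESeq2 and limma voom on the 4 inputs, and edgeR and DESeq2 on all 8 libraries, also called 0 members. *Fnip2* measured 16.2 and 13.7 CPM (EV input) and 26.8 and 47.1 CPM (eIF4A2 FL input), and the groups did not overlap (log2 fold change 1.27, SE 0.39, edgeR adjusted p = 0.66). *Deptor*, with the input levels given above, also did not overlap (log2 fold change 1.13, SE 0.40, edgeR adjusted p = 0.66). *Lamtor3* measured 4.68 and 6.87 CPM (EV input) and 2.60 and 2.73 CPM (eIF4A2 FL input) (log2 fold change −1.09, edgeR adjusted p = 0.703), and *Sesn1* had a log2 fold change of −0.88. *Mtor* was 0.25, *Rptor* −0.59, *Rictor* 0.27, *Tsc1* −0.08, *Tsc2* 0.01 and *Rraga* 0.19 on the log2 scale, each smaller than its change from input to RIP. The median log2 fold change was −0.13 over the members and −0.01 over all genes. Of the other pathway genes 0 of 56 passed in edgeR, with 8 higher and 3 lower by unadjusted p below 0.05. The 3 comparisons share libraries, so their results are not independent of each other.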

How the data were processed

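The authors made QuantSeq libraries, which yield about 1 tag per transcript near its 3′ end whatever its length. Their reads were trimmed (bbduk), aligned to mm10 (STAR version 2.5.3a) and assigned to genes (HTSeq version 0.11.2). The deposited table holds the resulting counts for 52550 genes and 5 summary lines, which stayed out of totals and tests. Of all reads in the table, 27.0% to 52.1% had several alignments, 3.30% to 45.8% fell outside annotated exons and 0.366% to 0.759% were ambiguous. Symbols, positions and lengths are from GENCODE M21, which holds 52403 of the gene identifiers. Neither the annotation release nor the strand setting used for counting is known here, and *Mlst8*, *Rps6kb1*, *Rps6kb2* and *Tsc2*, which have an exon of another gene on the opposite strand at their 3′ end, are uncertain.

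Genes were tested where each of the 4 inputs reached 1 CPM, computed on all gene reads, which left 10754 genes and 43 of 44 members. Each comparison was fitted to its own 4 libraries with edgeR (version 4.0.16, R version 4.3.3), TMM factors and the quasi-likelihood test, since RIP EV varied more than the other groups. Adjusted p-values are Benjamini-Hochberg over all genes tested, with a threshold of 0.05. Standard errors are approximate, being the log2 fold change divided by the square root of F. Reads carry no molecular identifiers here.

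Given by name were the 7 subunits of the mTOR complexes, *Tsc1*, *Tsc2*, *Tbc1d7*, *Rheb*, *Wdr59*, *Mios*, the Rag GTPases, the sestrins, members past the threshold over input or between inputs, the 5 highest and 5 lowest over input, and untested members. Other members and pathway genes were named after their values were seen. The members and lists were chosen with earlier results of these data known. Alternatives were edgeR on all 8 libraries, DESeq2 (version 1.42.0) on 4 or 8, limma voom (version 3.58.1) with a weight per group, library size alone, DESeq2 size factors, removal of *Gm42418*, filterByExpr, every gene with at least 1 count, the replicate number as a block, and each library left out. TMM factors from protein-coding nuclear genes, the length classes, the order of RIP EV against EV inputs, and values against 1 RIP EV library at a time were added after seeing the data.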

Additional observations from a re-analysis of the deposited data

Results flagged for a closer look

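In 10 of the 44 members, RIP libraries lay above both inputs in eIF4A2 FL cells and below both inputs in EV cells. Of the 43 tested it was 9, against 17.1% of all genes tested, so the members' share is near that of all genes. These were *Mtor*, *Mios*, *Tbc1d7*, *Sesn1*, *Nprl3*, *Wdr24*, *Akt1*, *Pdpk1*, *Ulk1* and, untested, *Rragb*. For the 5 of them that the naming rule covers, on the mean of log2(CPM + 1), the shift into RIP in eIF4A2 FL cells less the shift in EV cells was 6.71 for *Mtor* (1.42 and −5.29), 4.74 for *Mios* (1.17 and −3.57), 3.60 for *Tbc1d7* (0.65 and −2.95), 3.15 for *Sesn1* (1.21 and −1.94) and 2.40 for *Rragb* (1.43 and −0.97). The difference was not tested, and its sign follows from the order by which these members were picked. With 0 to 12 counts over both RIP EV libraries, the EV shifts depend on the 1 added to CPM and are neither exact nor bounds. RIP EV had fewer gene reads (2044853 and 3345151) than RIP eIF4A2 FL (11206420 and 9976801), and the part of depth in these values was not tested.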

How the results depend on the processing

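For RIP eIF4A2 FL over input, the 9 members higher and 1 lower (8.44% and 8.46% of genes) became 0 and 0 (0% and 0.0558%) with edgeR on all 8 libraries and 2 and 0 (2.55% and 4%) with DESeq2 on all 8, fits in which RIP EV enters the spread. DESeq2 on the 4 libraries gave 2 lower (10.2%), as did testing every gene with at least 1 count (5.16%), and library size alone gave 14 higher (18.2%). *Gm42418* took 701 CPM (input eIF4A2 FL replicate 2) to 136204 CPM (RIP EV replicate 1). Without its reads 8 members were higher (8.43%) and *Rragc* was not called. Leaving out 1 library gave 2 to 10 higher (3.75% to 12.2%) and 0 to 3 lower (4.23% to 10.3%). For RIP eIF4A2 FL over RIP EV, the 0 higher and 0 lower became 9 and 1 (24.8% and 5.46%) with edgeR on all 8 libraries, 11 and 2 (30.4% and 10.5%) with DESeq2 on all 8, 4 higher (7.75%) with DESeq2 on the 4 libraries and 8 higher (21.7%) with limma voom. Leaving out 1 library gave 0 to 28 higher (0.186% to 59%) and 0 to 9 lower (0.456% to 21.6%), where the lone library is assumed to vary like the other group. With the replicate block, 1 member was higher over RIP EV (1.95%), and 7 were higher (6.96%) and 1 lower (6.5%) over input. *Tti1* and *Rragc* lost their calls over input under that block, and the cause was not tested. Against RIP EV the direction reversed for *Deptor* (1.19) and *Wdr59* (11.01, fitted against 0 counts) without RIP EV replicate 2, against −1.46 and −1.35 without replicate 1, and for *Rragd* (6.27, fitted against 1 count) without RIP EV replicate 1, against −1.30 without replicate 2. Of the members outside the naming rule, *Sec13*, *Lamtor3* and *Lamtor5* were also called in opposite directions without 1 or the other RIP EV library. The cause of these changes was not tested. For input eIF4A2 FL over input EV, edgeR, DESeq2 and limma voom called 0 members in every setting run. With all libraries at most 0.363% of genes were called in either direction. By unadjusted p below 0.05, edgeR gave 2 higher (3.74%) and 0 lower (3.66%). Each group has 2 libraries, and for the 4 members tested without a count in RIP EV the fitted folds over it depend on the prior count.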
